A study of Mus musculus with 12 samples.

Results

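The machinery of oxidative phosphorylation is encoded in both the nuclear and the mitochondrial genome, and the mRNA levels of its genes were compared here in 4 sorted subsets of mouse CD4 T cells. Members were taken by name from the deposited count table: nuclear entries named for subunits of complexes I to V (Nduf followed by a, b, c, s or v and a number, Sdha to Sdhd, and names starting Uqcr, Cox4 to Cox8 or Atp5) and the protein-coding genes of the mitochondrial genome, leaving out names that end in -ps with or without a number. They numbered 102 of 54532 entries, of which 89 were nuclear-encoded and 13 mitochondrial-encoded. The nuclear members comprised, by name, 40 of complex I, 4 of complex II, 8 of complex III, 19 of complex IV and 18 of complex V. By annotation 4 of them are processed pseudogenes that the names let in, Ndufa11b, Ndufb4c and Ndufs6b counted under complex I and Cox6c2 under complex IV. Cox6c2 with 62 to 126 counts per library and Ndufb4c with 2 to 20 were tested, and neither was called in any comparison. The mitochondrial ones comprised 7 of complex I, 1 of complex III, 3 of complex IV and 2 of complex V. RNA was sequenced in 12 libraries, 3 from each subset, of cells sorted fresh from mixed spleen and lymph node of untreated mice. All carried the same genotype, wild-type C57BL/6 with a Foxp3-GFP reporter and a polyclonal T cell repertoire. Anergic cells, antigen-experienced cells that respond poorly to antigen, were gated as CD44high and FOXP3-negative with high CD73 and FR4 and with NRP1. Regulatory cells (Treg) were gated on FOXP3 and CD25, effector cells (Teff) as CD44high and FOXP3-negative with low CD73 and FR4, and Naive cells as CD44low. The subsets were therefore defined by surface markers and the reporter at the time of sorting, with no genetic change or treatment between them.

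As background, complexes I to IV carry electrons from NADH and succinate to oxygen and pump protons across the inner mitochondrial membrane, except for complex II, which does not pump and is encoded wholly in the nucleus. Complex V, the ATP synthase, uses the proton gradient to make ATP. The mitochondrial genome gives a few hydrophobic core subunits, transcribed as long precursors from both strands, while nuclear genes supply the remaining subunits, among them iron-sulfur proteins, small structural subunits and tissue-specific isoforms. In T cells the naive and regulatory states are known to lean on oxidative metabolism, and activated effector cells on aerobic glycolysis.

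The libraries held 6909035 to 9527897 counts, and 13393 entries had enough counts to be tested with edgeR's quasi-likelihood test. Positions are those of GRCm38. Of the nuclear members 75 were tested, 14 had too few counts, and 3 of these had 0 counts in every library. Of the mitochondrial members 11 were tested, and mt-Nd4l and mt-Atp8 had too few counts. Levels below are TMM-scaled CPM, the count of a gene in relation to the total of its library, and differences are log2 fold changes (log2FC) with their standard error (SE). A gene is called higher or lower where its Benjamini-Hochberg adjusted p over all tested entries was under 0.05. Whether the 3 replicates are separate mice is not in the labels, and the p-values then measure the spread between these libraries, which may be technical. The summed CPM of Foxp3 and Il2ra was 1194 to 1322 in Treg and at most 50.6 elsewhere. That of Izumo1r (FR4), Nt5e (CD73) and Nrp1 was 962 to 1070 in Anergic, 706 to 790 in Treg, 185 to 206 in Teff and 71.6 to 73.5 in Naive libraries. Markers of other cells were low but not at 0 throughout. B cell markers summed to at most 7.38 CPM. Markers of NK cells summed to 29.9 to 52.0 CPM in Teff and at most 5.33 CPM in the other subsets. Anergic replicate 3 stood apart, with a TMM factor of 0.871 against 0.955 to 1.06 in the other 11 libraries. In bulk RNA of this kind, fewer cells of a type and less RNA per cell cannot be told apart.

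The mitochondrial mRNAs were far more abundant than the nuclear ones, but the table did not count all of them alike. Per kb of exon, averaged over the 12 libraries, the 11 tested mitochondrial mRNAs had a median level of 346 CPM per kb. They ran up to 1840 CPM per kb for mt-Co1, the catalytic subunit of complex IV. The 74 tested nuclear members with a known exon length had a median of 19.8 CPM per kb, from 0.626 for Atp5s to 84.3 for Uqcrh, the hinge subunit of complex III. Of all mitochondrial mRNA counts, 36.4% were mt-Co1, 19.4% mt-Cytb, 16.9% mt-Nd5, 11.7% mt-Nd1, 6.92% mt-Nd2, 6.10% mt-Nd4 and 2.26% mt-Nd6. The other 6 genes were nearly uncounted: mt-Co2, mt-Co3, mt-Atp6, mt-Atp8, mt-Nd3 and mt-Nd4l had 0 to 118 counts per library. They lie side by side on the mitochondrial genome, between mt-Co1 and mt-Nd4.

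A block of annotated pseudogenes on the minus strand of chromosome 1, chr1:24611535-24616197 in GRCm38, repeats this stretch of the mitochondrial genome. Aligned to the GENCODE transcripts, mt-Co2, mt-Atp6, mt-Co3, mt-Nd3 and mt-Nd4l were each covered over 99.0 to 99.9% of their length, with 0 mismatches in the aligned bases, by Gm28661, Gm10925, Gm28437, Gm28438 and Gm10222. These 5 genes stood at 1.16 to 27.3 CPM per kb, and their copies had 0 to 88 counts per library. The mt-Co1 gene was covered over 31.3% by Gm29216 and mt-Nd4 over 63.6% by Gm28439. These 2 genes had 3213 to 28781 counts per library. For mt-Atp8, no annotated copy was found, and the gene lay within the same stretch and had 1 to 12 counts per library. The first 60 bases of mt-Co2 and of its copy are shown because a read inside them matches both places. The start of the Gm29216 copy is shown beside mt-Co1 because the shared sequence begins there. In that pair capitals mark the shared bases, which start at base 1067 of mt-Co1 and base 14 of Gm29216.
mt-Co2, chrM, bases 1 to 60: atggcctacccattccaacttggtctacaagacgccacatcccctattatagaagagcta
Gm28661, chr1, bases 1 to 60: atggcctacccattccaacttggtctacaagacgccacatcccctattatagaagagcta
mt-Co1, chrM, bases 1054 to 1113: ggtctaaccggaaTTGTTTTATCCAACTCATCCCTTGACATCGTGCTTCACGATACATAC
Gm29216, chr1, bases 1 to 60: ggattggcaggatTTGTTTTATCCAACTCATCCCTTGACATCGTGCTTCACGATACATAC
The sources used here do not state how reads matching several places were counted. Levels of these 6 genes are therefore not comparable with those of the other 7, and the part of the copies in them was not tested. The levels and shares of mt-Co1 and mt-Nd4 carry the same limit over the 31.3% and 63.6% repeated in copies.

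**Figure D1:**
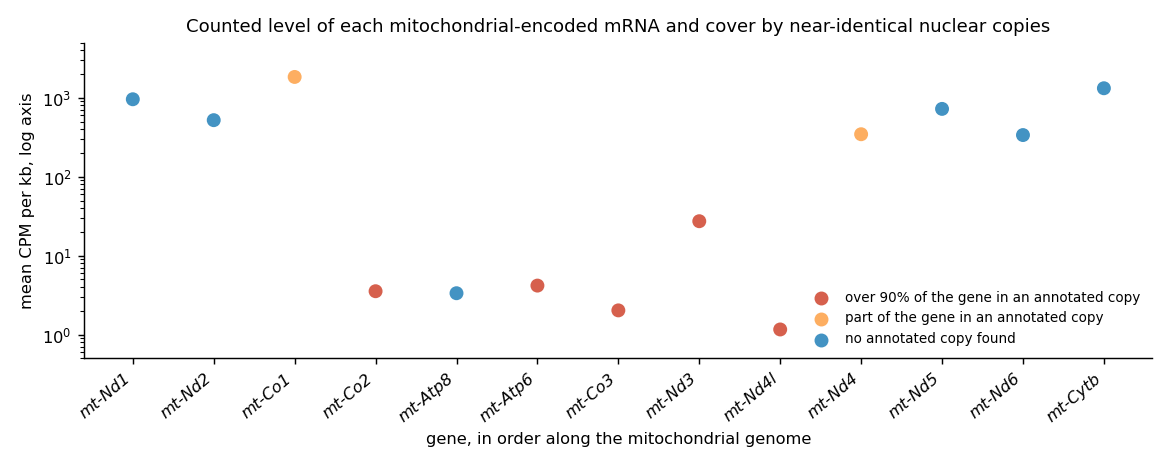
Mean level over the 12 libraries (CPM per kb of exon, log axis) of the 13 mitochondrial-encoded mRNAs in their order on the mitochondrial genome, coloured by how much of the gene an annotated nuclear copy repeats. The 6 neighbouring genes from mt-Co2 to mt-Nd4l stand at 1.16 to 27.3 CPM per kb and the other 7 at 338 to 1840 CPM per kb.

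Anergic cells had the most mitochondrial-encoded mRNA in relation to nuclear-encoded mRNA, and Teff and Treg the least. Summed over members, the count of mitochondrial-encoded over nuclear-encoded mRNA was 2.64, 2.76 and 3.08 in the Anergic libraries, 2.17, 2.03 and 2.25 in Treg, 2.07, 2.03 and 2.08 in Teff and 2.42, 2.32 and 2.39 in Naive. Every Anergic library was above every other library, every Naive library was above every Treg and Teff library, and Treg and Teff overlapped. The means were 2.83 ± 0.224 in Anergic, 2.15 ± 0.113 in Treg, 2.06 ± 0.0233 in Teff and 2.38 ± 0.0525 in Naive (mean ± SD, n = 3 each). As a ratio within a library it needs no scaling between libraries, and, being a sum over chosen members, it is given without a test. On the log2 scale the mean ratio in Anergic cells was 0.39 above Treg, 0.45 above Teff and 0.25 above Naive, and without Anergic replicate 3 these differences were 0.33, 0.39 and 0.19.

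The sums behind the ratio were small shares of each library. Mitochondrial mRNA made up 0.787, 0.893 and 0.896% of counts in the Anergic libraries, 0.763, 0.729 and 0.8198% in Treg, 0.678, 0.695 and 0.729% in Teff and 0.7498, 0.781 and 0.7898% in Naive. The nuclear members together made up 0.298, 0.323 and 0.291% of counts in Anergic, 0.351, 0.3596 and 0.365% in Treg, 0.327, 0.342 and 0.351% in Teff and 0.3096, 0.337 and 0.331% in Naive libraries. The mitochondrial shares of Anergic replicates 2 and 3 were above all others, and Treg replicate 3 and Naive replicate 3 were above Anergic replicate 1. All Treg libraries had a higher nuclear share than all Anergic and Naive libraries, and Teff replicate 3 equalled the lowest of them to 3 digits. Teff libraries had a lower mitochondrial share than all Anergic and Naive libraries, and the highest equalled the lowest of Treg to 3 digits. Wilson score 95% intervals of a library's mitochondrial share were narrow, for example 0.781 to 0.793% in Anergic replicate 1. They cover counting error only, since reads without molecular identifiers are not independent molecules. Mitochondrial ribosomal RNA also took its largest share of counts in the Anergic libraries. It took 13.9, 15.8 and 16.2% of counts in the Anergic libraries, 11.9, 11.8 and 12.3% in Treg, 10.9, 12.3 and 12.1% in Teff and 10.1, 10.3 and 10.6% in Naive. The ratio of mitochondrial rRNA to mitochondrial mRNA counts was 17.64 to 18.05 in Anergic, 15 to 16.22 in Treg, 16.15 to 17.7 in Teff and 13.15 to 13.47 in Naive libraries. The part of the rRNA share in the mRNA levels was not tested.

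**Figure D2:**
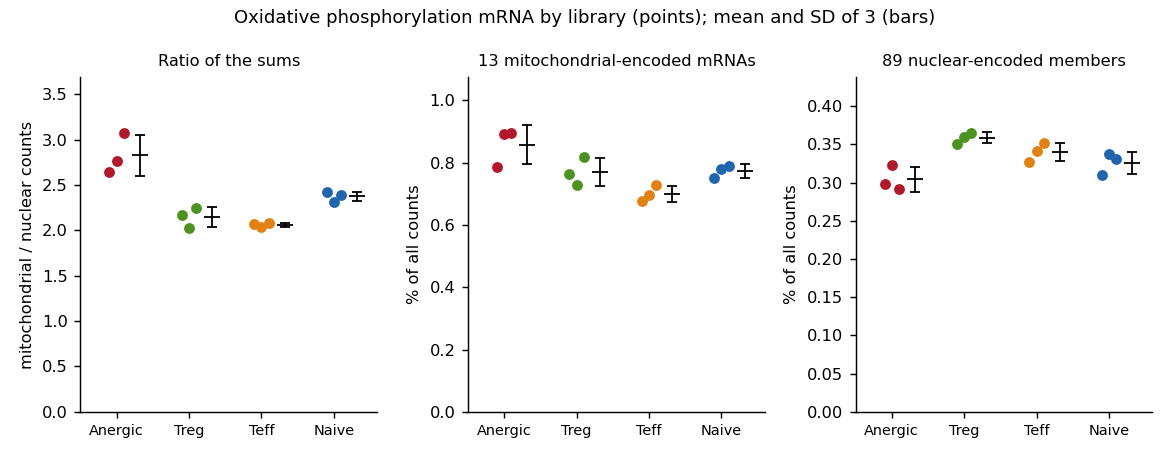
Ratio of summed mitochondrial-encoded to summed nuclear-encoded member counts (left), and each sum as a percent of all counts of the library (middle and right); points are libraries, bars the mean and SD of 3. The Anergic libraries have ratios of 2.64 to 3.08, above all 9 others, and the nuclear share is highest by mean in Treg.

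Most of the tested mitochondrial mRNAs were higher in Anergic cells than in Treg and Teff, and fewer were called against Naive. Of the 11 tested, 6 were higher and 0 lower than in Treg, where 15.6% of all tested entries were called higher and 15.3% lower. Against Teff 8 were higher and 0 lower, with 13.9% and 12.7% of all entries called, and against Naive 3 were higher and 0 lower, with 25.0% and 21.3% of all entries called. As shares of the 11 the higher calls came to 54.5% against Treg, 72.7% against Teff and 27.3% against Naive, and the share against Naive is close to that of all entries. Without Anergic replicate 3, 1 was called against Naive. The median log2 fold change of the 11 was 0.32 against Treg, 0.39 against Teff and 0.23 against Naive, while the median of all tested entries was between 8.02e-05 and 0.00795 in all 6 comparisons. These comparisons share the Anergic libraries and are not independent of each other.

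Core subunits of complex I were 6 of the 11 tested mRNAs. They had 4 of the 6 calls against Treg, 6 of the 8 against Teff and 1 of the 3 against Naive. The mRNA of mt-Nd6, the one read from the opposite strand to the rest (chrM:13552-14070), had 220.1, 248 and 222 CPM in the Anergic and 161, 152 and 162 CPM in the Treg libraries. In Teff libraries mt-Nd6 had 147, 159 and 161 CPM, and in Naive libraries 158, 165 and 148 CPM. No Anergic library overlapped another subset, and all other subsets lay close together. The log2FC of mt-Nd6 was 0.54 ± 0.0663 SE against Treg (adjusted p = 6.91e-07). It was 0.56 ± 0.0665 SE against Teff (adjusted p = 4.27e-07) and 0.55 ± 0.0668 SE against Naive (adjusted p = 2.92e-07). These 3 calls held under every alternative tried, with adjusted p of at most 0.000384. The mRNA of mt-Nd1, the first of the coding genes, had 947, 975 and 1163 CPM in the Anergic and 812, 782 and 870.2 CPM in the Treg libraries. In Teff libraries mt-Nd1 had 789.9, 870.2 and 879.7 CPM, and in Naive libraries 947, 945 and 1038 CPM. All Anergic libraries were above those of Treg and Teff, and they overlapped Naive. The log2FC of mt-Nd1 was 0.32 ± 0.0755 SE against Treg (adjusted p = 0.00164). It was 0.28 ± 0.0755 SE against Teff (adjusted p = 0.00675) and 0.074 ± 0.0754 SE against Naive (adjusted p = 0.446). Another, mt-Nd5, which forms part of the proton-pumping arm, had 1324, 1457 and 1671 CPM in the Anergic and 1317, 1268 and 1360 CPM in the Treg libraries. In Teff libraries mt-Nd5 had 1100, 1120 and 1171 CPM, and in Naive libraries 1329, 1325 and 1415 CPM. Anergic replicates 2 and 3 were above all others, and all 3 were above Teff. The call was against Teff. The log2FC of mt-Nd5 was 0.39 ± 0.0722 SE against Teff (adjusted p = 0.000172). It was 0.17 ± 0.07198 SE against Treg (adjusted p = 0.0701) and 0.13 ± 0.07203 SE against Naive (adjusted p = 0.148). It was called against Treg with no filter (adjusted p = 0.0349), by DESeq2 (adjusted p = 0.0279), and without Anergic replicate 1 (adjusted p = 0.00515) or Teff replicate 1 (adjusted p = 0.0499). Against Naive it was called without Anergic replicate 1 (adjusted p = 0.0157).

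The other complex I mRNAs of the mitochondrial genome had smaller or less certain differences. Levels of mt-Nd2 were 603 ± 89.2 CPM in Anergic, 481 ± 29.5 in Treg, 509 ± 27.9 in Teff and 571 ± 16.2 in Naive (mean ± SD, n = 3 each). It was higher in Anergic cells than in Treg (log2FC 0.32 ± 0.0807 SE, adjusted p = 0.00295) and Teff (log2FC 0.24 ± 0.0807 SE, adjusted p = 0.0271), and not called against Naive (log2FC 0.078 ± 0.0806 SE, adjusted p = 0.454). Levels of mt-Nd4 were 548 ± 79.3 CPM in Anergic, 457 ± 29.9 in Treg, 415 ± 36.5 in Teff and 486 ± 20.1 in Naive (mean ± SD, n = 3 each), and the lowest Anergic library overlapped Treg and Naive. It was higher in Anergic cells than in Treg (log2FC 0.26 ± 0.08503 SE, adjusted p = 0.0206) and Teff (log2FC 0.40 ± 0.0853 SE, adjusted p = 0.000825). One of the genes repeated on chromosome 1, mt-Nd3, had only 52 to 118 counts per library. It was higher than in Teff alone (log2FC 0.68 ± 0.191 SE, adjusted p = 0.00921). Without Anergic replicate 3 the Teff calls of mt-Nd1 (adjusted p = 0.0670), mt-Nd2 (adjusted p = 0.286) and mt-Nd3 (adjusted p = 0.115) were lost, as was the Treg call of mt-Nd4 (adjusted p = 0.177). The Teff call of mt-Nd2 was also lost without Teff replicate 1 (adjusted p = 0.105) or 3 (adjusted p = 0.0726). That of mt-Nd4 against Treg was lost without Treg replicate 1 (adjusted p = 0.0612) or 2 (adjusted p = 0.0826). With scaling by total counts, mt-Nd4 against Treg (adjusted p = 0.234) and mt-Nd1 (adjusted p = 0.0543) and mt-Nd2 (adjusted p = 0.169) against Teff were not called.

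Cytochrome b of complex III is encoded by mt-Cytb, which had 1538, 1795 and 2135 CPM in the Anergic and 1510, 1375 and 1629 CPM in the Treg libraries. In Teff libraries mt-Cytb had 1125, 1305 and 1327 CPM, and in Naive libraries 1439, 1407 and 1570 CPM. The lowest Anergic library lay within the Treg and Naive ranges and all 3 lay above Teff. The log2FC of mt-Cytb was 0.28 ± 0.0928 SE against Treg (adjusted p = 0.0249). It was 0.54 ± 0.0931 SE against Teff (adjusted p = 7.69e-05) and 0.31 ± 0.0929 SE against Naive (adjusted p = 0.00865). The catalytic subunit of complex IV, mt-Co1, had 2875, 3379 and 3755 CPM in the Anergic and 2583, 2513 and 2829 CPM in the Treg libraries. In Teff libraries mt-Co1 had 2414, 2608 and 2644 CPM, and in Naive libraries 2680, 2838 and 2997 CPM. The log2FC of mt-Co1 was 0.34 ± 0.0805 SE against Treg (adjusted p = 0.00205). It was 0.38 ± 0.0805 SE against Teff (adjusted p = 0.000725) and 0.23 ± 0.0805 SE against Naive (adjusted p = 0.0206). The Anergic libraries overlapped those of Naive and no other subset. Without Anergic replicate 3 mt-Cytb was no longer called against Treg (adjusted p = 0.205) or Naive (adjusted p = 0.0944), nor mt-Co1 against Naive (adjusted p = 0.145). The numbers of mitochondrial mRNAs called were then 4 against Treg, 5 against Teff and 1 against Naive. Against Treg, mt-Cytb also had an adjusted p of 0.0507 without Treg replicate 1, 0.122 without Treg replicate 2, 0.196 with scaling by total counts and 0.0723 by DESeq2. Against Naive, mt-Co1 had an adjusted p of 0.0554 without Anergic replicate 2, 0.0903 without Naive replicate 1 and 0.0536 without Naive replicate 2. Without Anergic replicate 1, 5 mitochondrial mRNAs were called against Naive. The 3 mRNAs called in none of the 6 comparisons, mt-Co2, mt-Co3 and mt-Atp6, had 8 to 33 counts per library. Without Anergic replicate 1, mt-Atp6 was called higher in Anergic than in Teff (log2FC 0.90, adjusted p = 0.0410).

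**Figure D3:**
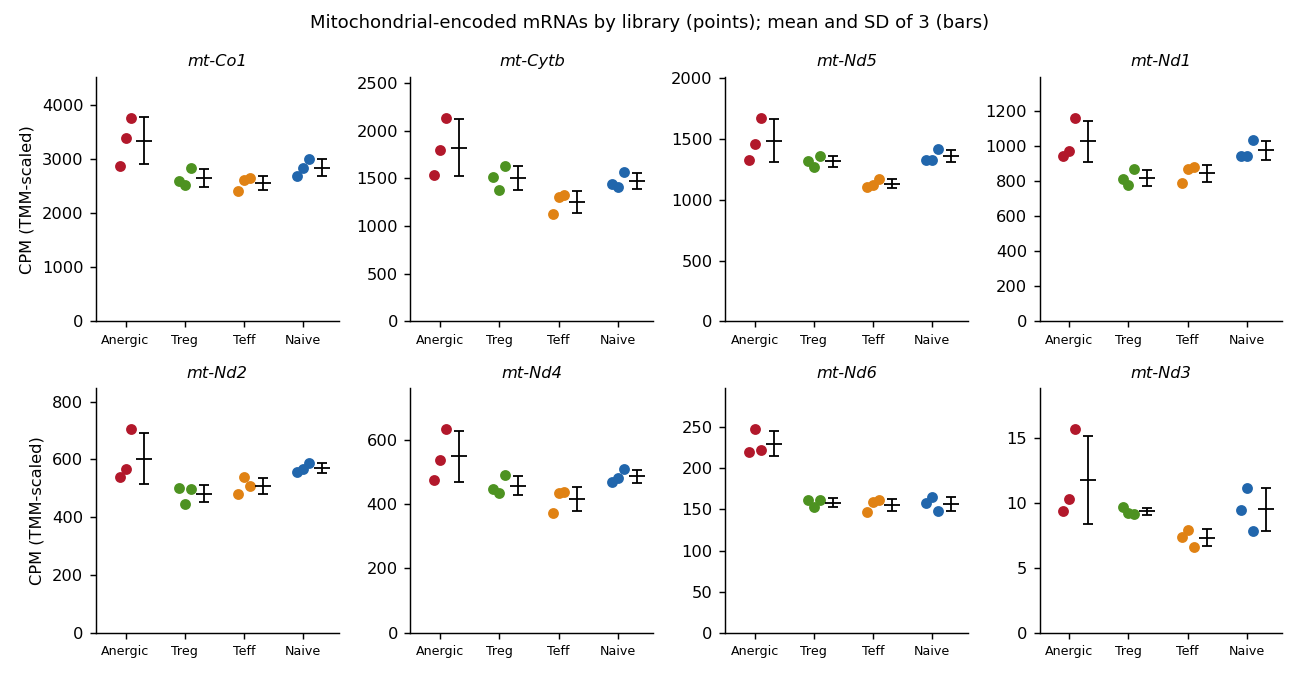
TMM-scaled CPM of 8 mitochondrial-encoded mRNAs in each library (points), with mean and SD of 3 (bars). mt-Nd6 separates the Anergic libraries (220.1 to 248 CPM) from all others (147 to 165 CPM), whereas in mt-Co1 and mt-Cytb Anergic replicate 3 is the highest library and Anergic replicate 1 is near the other subsets.

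Among the 3 other subsets, 2 or 3 mitochondrial mRNAs were called in each comparison. In Treg against Teff 2 of 11 were higher and 0 lower, where 15% of all entries were called higher and 14.1% lower. The 2 were mt-Nd5 (log2FC 0.22 ± 0.0721 SE, adjusted p = 0.0241) and mt-Cytb (log2FC 0.27 ± 0.09297 SE, adjusted p = 0.0339). Both calls were lost without Teff replicate 1 (adjusted p = 0.0863 and 0.187), Treg replicate 1 (adjusted p = 0.0662 and 0.0828) or Treg replicate 3 (adjusted p = 0.112 and 0.190), which left 0 called in each case. Without Teff replicate 2, mt-Nd5 was lost (adjusted p = 0.0690) and 1 was called. In Treg against Naive 0 were higher and 2 lower, where 19% of all entries were called higher and 13.9% lower. These were mt-Nd1 (log2FC -0.25 ± 0.0756 SE, adjusted p = 0.0127) and mt-Nd2 (log2FC -0.25 ± 0.0808 SE, adjusted p = 0.0212). Both were lost, leaving 0, without Treg replicate 2 (adjusted p = 0.0685 and 0.117) or Naive replicate 3 (adjusted p = 0.0696 and 0.0712).

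In Teff against Naive 0 of 11 were higher and 3 lower, where 19.2% of all entries were called higher and 15.7% lower. The 3 were mt-Nd5 (log2FC -0.26 ± 0.0722 SE, adjusted p = 0.00592), mt-Nd1 (log2FC -0.21 ± 0.0756 SE, adjusted p = 0.0369) and mt-Nd4 (log2FC -0.23 ± 0.0855 SE, adjusted p = 0.0395), and all 11 had negative log2 fold changes, with a median of -0.23. mt-Nd5 kept its call when any library was left out. The calls of mt-Nd1 and mt-Nd4 were lost, leaving 1, without Teff replicate 1 (adjusted p = 0.169 and 0.214), Naive replicate 2 (adjusted p = 0.0504 and 0.0761) or Naive replicate 3 (adjusted p = 0.173 and 0.145), and 5 were called without Anergic replicate 3. That of mt-Nd4 was also lost without Treg replicate 2 (adjusted p = 0.0525). The markers of NK cells were highest in the Teff libraries, and their part in these differences was not tested.

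Ratios between mitochondrial mRNAs of one library also differed by subset. The count of mt-Cytb over that of mt-Nd1 was 1.62, 1.84 and 1.84 in Anergic and 1.86, 1.76 and 1.87 in Treg libraries, against 1.42, 1.5 and 1.51 in Teff and 1.52, 1.49 and 1.51 in Naive libraries. Anergic and Treg libraries thus all lay above all Teff and Naive libraries. The count of mt-Nd5 over that of mt-Nd1 was 1.398, 1.49 and 1.44 in Anergic, 1.62, 1.62 and 1.56 in Treg, 1.39, 1.29 and 1.33 in Teff and 1.403, 1.402 and 1.36 in Naive libraries, highest in all 3 Treg libraries. The share of mt-Nd6 in mitochondrial mRNA was 2.77, 2.76 and 2.15% in Anergic, 2.19, 2.18 and 2.06% in Treg, 2.28, 2.25 and 2.25% in Teff and 2.07, 2.13 and 1.79% in Naive libraries. Anergic replicates 1 and 2 lay above all others and Anergic replicate 3 among them. These ratios were chosen after the values were seen and have no test. On the other strand, mt-Nd6 overlaps the end of mt-Nd5 by 14 bases. The library kit keeps strand, but no source used here states the strand setting of the counting. Reads of mt-Nd6 and of antisense RNA from the same stretch cannot be told apart.

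The nuclear-encoded members gave calls in both directions. In Anergic against Treg 2 of 75 were higher and 12 lower, and in Anergic against Teff 0 were higher and 8 lower, against the 12.7 to 15.6% of all entries called in each direction. In Anergic against Naive 8 were higher and 11 lower, in Treg against Teff 4 and 3, in Treg against Naive 11 and 0, and in Teff against Naive 6 and 2. The shares of all entries called higher and lower were 25.0% and 21.3% in Anergic against Naive, 15% and 14.1% in Treg against Teff, 19% and 13.9% in Treg against Naive, and 19.2% and 15.7% in Teff against Naive. The members called were thus at or below the background share in every comparison and direction, apart from the 12 lower in Anergic against Treg, which is close to it. The median log2 fold changes of the 75 were -0.094 in Anergic against Treg, -0.057 in Anergic against Teff and -0.038 in Anergic against Naive. They were 0.041 in Treg against Teff, 0.072 in Treg against Naive and 0.060 in Teff against Naive. Of the 75, 38 were called in none of the 6 comparisons, 16 in 1, 14 in 2, 5 in 3 and 2, Cox7a2l and Cox8a, in 4.

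With scaling by total counts alone, which put the median of all entries at -0.13 in Anergic against Treg, 1 nuclear member was higher and 30 were lower there (40% of 75), where 9.89% of all entries were higher and 22.6% lower. In Anergic against Teff, with that median at -0.10, 0 were higher and 13 lower (17.3%), close to the 17% of all entries called lower. The number called thus rests on how libraries are scaled. In Treg against Naive that scaling gave 19 higher (25.3%) and 0 lower, where 21.8% of all entries were higher and 8.41% lower. In Anergic against Naive 6 (8.0%) were higher and 13 (17.3%) lower, with 21.5% and 22.4% of all entries. In Treg against Teff 6 (8.0%) were higher and 2 (2.67%) lower, with 14.9% and 11.3% of all entries. In Teff against Naive 10 (13.3%) were higher and 1 (1.33%) lower, with 20.3% and 11.1% of all entries. Of the 11 mitochondrial mRNAs 4 (36.4%) were higher and 0 lower in Anergic against Treg under that scaling. Against Teff 6 (54.5%) were higher and 0 lower, and against Naive 3 (27.3%) and 0. The shares of all entries called higher were 9.89%, 9.09% and 21.5%.

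**Figure D4:**
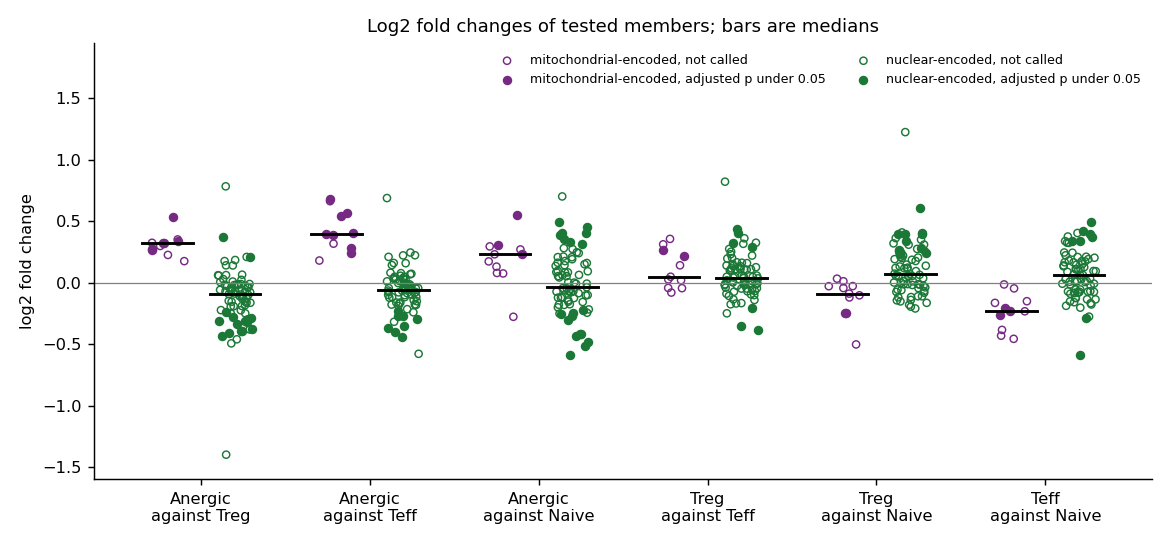
Log2 fold changes of the 11 mitochondrial-encoded and 75 nuclear-encoded members tested in each of the 6 comparisons; filled points have an adjusted p under 0.05 and black bars are medians. In the 3 comparisons of Anergic cells the mitochondrial median is 0.23 to 0.39 and the nuclear median -0.094 to -0.038, and in Teff against Naive they are -0.23 and 0.060.

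Complex I, the NADH dehydrogenase, had 36 tested nuclear members by name, among them Ndufa4, which is a subunit of complex IV. In Anergic cells 0 of them were higher and 4 lower against Treg, 0 and 4 against Teff, and 4 and 6 against Naive. Those lower were 11.1% against Treg and Teff and 16.7% against Naive, below the 15.3%, 12.7% and 21.3% of all entries called lower. Ndufa10, an accessory subunit of the membrane arm (chr1:92439010-92473860, minus strand), had 48.8, 52.5 and 53.4 CPM in the Anergic and 57.3, 60.4 and 70.5 CPM in the Treg libraries. In Teff libraries Ndufa10 had 66.6, 59.6 and 71.4 CPM, and in Naive libraries 69.6, 72.4 and 66.9 CPM. All 3 Anergic libraries were below all 9 others. The log2FC of Ndufa10 was -0.28 ± 0.0843 SE against Treg (adjusted p = 0.0118). It was -0.35 ± 0.0844 SE against Teff (adjusted p = 0.00258) and -0.44 ± 0.0848 SE against Naive (adjusted p = 0.000164). Ndufv2, an iron-sulfur subunit of the NADH-oxidising module, moved the other way, with 44.3, 45.3 and 50.2 CPM in Anergic and 36.95, 36.6 and 37.6 CPM in Naive libraries (log2FC 0.33 ± 0.0895 SE, adjusted p = 0.00394). The Treg call of Ndufa10 was lost without Anergic replicate 1 (adjusted p = 0.0521) or Treg replicate 3 (adjusted p = 0.134).

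Between the other subsets, 6 nuclear complex I members were higher and 0 lower in Treg than in Naive, 2 and 1 in Treg than in Teff, and 2 and 1 in Teff than in Naive. Those higher were 16.7%, 5.56% and 5.56%, below the 19%, 15% and 19.2% of all entries called higher. Those lower were also below the shares of all entries. Ndufs8, a core iron-sulfur subunit, had 28.6, 29.3 and 31.2 CPM in Treg and 22.2, 20.7 and 24.4 CPM in Naive libraries (log2FC 0.41 ± 0.103 SE, adjusted p = 0.00342). Ndufb7, an accessory subunit, had 47.8, 49.7 and 51.9 CPM in Teff and 35.4, 38.8 and 39.3 CPM in Naive libraries (log2FC 0.40 ± 0.0857 SE, adjusted p = 0.0007501). Ndufv1, the core subunit that binds NADH and flavin, had 32.5, 38.9 and 44.8 CPM in Teff and 42.7, 47.7 and 51.1 CPM in Naive libraries, which overlapped (log2FC -0.29 ± 0.104 SE, adjusted p = 0.0351). Ndufv3, an accessory subunit of the same module, had 43.6, 40.3 and 34.9 CPM in Treg and 49.05, 51.3 and 51.4 CPM in Teff libraries, which did not overlap (log2FC -0.35 ± 0.0884 SE, adjusted p = 0.00366). Ndufc2, a membrane arm subunit, was higher in Treg than in Teff (log2FC 0.43 ± 0.142 SE, adjusted p = 0.0233). The difference of Ndufv1 was not called without Teff replicate 1 (adjusted p = 0.247) or 2 (adjusted p = 0.0685) and without Naive replicate 2 (adjusted p = 0.0905) or 3 (adjusted p = 0.159). The one of Ndufc2 was not called without Teff replicate 1 (adjusted p = 0.128) or 2 (adjusted p = 0.101) and without Treg replicate 1 (adjusted p = 0.102) or 3 (adjusted p = 0.0508).

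Complex II, succinate dehydrogenase, showed small and divergent differences among its 4 subunits. Sdha, the flavoprotein that oxidises succinate, had 208, 218 and 234 CPM in the Anergic and 184, 196 and 193 CPM in the Treg libraries. In Teff libraries Sdha had 180.3, 212 and 200.4 CPM, and in Naive libraries 200.1, 205 and 218 CPM. It was higher in Anergic than in Treg cells (log2FC 0.21 ± 0.0686 SE, adjusted p = 0.02398). Sdhb, the iron-sulfur subunit that passes the electrons on, had 34.8, 44.3 and 36.6 CPM in the Anergic and 50.5, 47.8 and 51.9 CPM in the Treg libraries. In Teff libraries Sdhb had 35.02, 41.8 and 43.5 CPM, and in Naive libraries 41.6, 46.97 and 37.03 CPM. It was lower in Anergic than in Treg (log2FC -0.38 ± 0.101 SE, adjusted p = 0.00571). Levels in Treg were above those in Teff (log2FC 0.32 ± 0.101 SE, adjusted p = 0.0173), and all 3 Treg libraries were above all others. Sdhd, a membrane anchor, stood at 20.8 ± 0.931 CPM in Anergic, 23.2 ± 2.03 in Treg, 22.2 ± 1.82 in Teff and 17.7 ± 2.11 in Naive (mean ± SD, n = 3 each). It was higher than in Naive cells both in Treg (log2FC 0.40 ± 0.118 SE, adjusted p = 0.0116) and in Teff (log2FC 0.34 ± 0.119 SE, adjusted p = 0.0302). Sdhc, the other anchor, was called in no comparison, at 28.3 ± 1.19 CPM in Anergic, 31.1 ± 3.19 in Treg, 30.01 ± 2.92 in Teff and 33.5 ± 4.51 in Naive (mean ± SD, n = 3 each). It was called lower in Anergic than in Naive with scaling by total counts (adjusted p = 0.0419) and without Naive replicate 1 (adjusted p = 0.0137). Single libraries ended several of these calls. The call of Sdha was lost without Anergic replicate 3 (adjusted p = 0.108) or Treg replicate 1 (adjusted p = 0.0874), and with scaling by total counts (adjusted p = 0.479). Sdhb in Treg against Teff was not called without Teff replicate 1 (adjusted p = 0.135), Treg replicate 1 (adjusted p = 0.0536) or Treg replicate 3 (adjusted p = 0.0737). Sdhd in Teff was not called without Teff replicate 2 (adjusted p = 0.118) or 3 (adjusted p = 0.0654) or Naive replicate 2 (adjusted p = 0.180). In Treg it was not called without Treg replicate 3 (adjusted p = 0.0721) or Naive replicate 2 (adjusted p = 0.0932).

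Complex III, which passes electrons from ubiquinol to cytochrome c, had 7 tested nuclear members. In Anergic cells 2 were lower against Treg, 1 lower against Teff, and 1 higher and 1 lower against Naive, too few to read against the shares of all entries. Uqcrfs1, the Rieske iron-sulfur protein (chr13:30540308-30545362, minus strand), had 32.2, 31.1 and 32.9 CPM in the Anergic and 39.5, 44.1 and 37.9 CPM in the Treg libraries. In Teff libraries Uqcrfs1 had 40.4, 44.1 and 42.8 CPM, and in Naive libraries 40.95, 44.9 and 48.4 CPM. All 3 Anergic libraries were below all 9 others. The log2FC of Uqcrfs1 was -0.33 ± 0.0874 SE against Treg (adjusted p = 0.00439). It was -0.40 ± 0.0875 SE against Teff (adjusted p = 0.00103) and -0.48 ± 0.0881 SE against Naive (adjusted p = 8.38e-05). In the same cells mt-Cytb, the mitochondrial-encoded partner in the complex, was higher. Uqcr11, a small subunit, had 16.4, 18.2 and 17.5 CPM in Treg and 10.9, 11.4 and 11.99 CPM in Naive libraries, the one complex III call in that comparison (log2FC 0.60 ± 0.151 SE, adjusted p = 0.00301). In Treg against Teff and in Teff against Naive 0 of the 7 were called by edgeR.

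Complex IV, cytochrome c oxidase, held both nuclear members that were called most often, and they moved in opposite directions. Cox8a, the common isoform of the smallest structural subunit (chr19:7215153-7217616, minus strand), had 49.99, 54.1 and 49.5 CPM in the Anergic and 40.4, 40.03 and 38.3 CPM in the Treg libraries. In Teff libraries Cox8a had 49.05, 52.9 and 53.5 CPM, and in Naive libraries 37.5, 38.2 and 40.4 CPM. All Anergic and Teff libraries were above all Treg and Naive libraries. In Anergic cells Cox8a was higher than in Treg (log2FC 0.37 ± 0.0757 SE, adjusted p = 0.000436) and Naive (log2FC 0.41 ± 0.0775 SE, adjusted p = 0.000128). Teff cells had more than Naive cells (log2FC 0.42 ± 0.0774 SE, adjusted p = 0.000119), and Treg less than Teff (log2FC -0.39 ± 0.0757 SE, adjusted p = 0.000288). Cox7a2l, a subunit-like protein that joins complexes III and IV into supercomplexes and that occurs in a shortened form in C57BL/6 mice (chr17:83501918-83517330, minus strand), had 84.7, 91.9 and 102 CPM in the Anergic and 132, 116 and 123 CPM in the Treg libraries. In Teff libraries Cox7a2l had 84.9, 98.2 and 96.4 CPM, and in Naive libraries 132, 141 and 147 CPM. All Anergic and Teff libraries were below all Treg and Naive libraries. In Anergic cells Cox7a2l was lower than in Treg (log2FC -0.41 ± 0.0774 SE, adjusted p = 0.000186) and Naive (log2FC -0.59 ± 0.0777 SE, adjusted p = 9.2e-07). Teff cells had less than Naive cells (log2FC -0.59 ± 0.0776 SE, adjusted p = 1.58e-06), and Treg more than Teff (log2FC 0.41 ± 0.0774 SE, adjusted p = 0.000217). These 8 calls held under every alternative tried.

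Other complex IV members were called less often. Cox5b, a structural subunit of the matrix side, had 57.6, 61.3 and 68.4 CPM in the Anergic and 61.3, 56.4 and 61.96 CPM in the Treg libraries. In Teff libraries Cox5b had 59.8, 64.7 and 68.6 CPM, and in Naive libraries 37.6, 44.4 and 55.5 CPM. Against Naive, Cox5b was higher in Anergic (log2FC 0.45 ± 0.103 SE, adjusted p = 0.000899) and Treg (log2FC 0.39 ± 0.103 SE, adjusted p = 0.00442). It was also higher in Teff (log2FC 0.49 ± 0.103 SE, adjusted p = 0.000495), and the 3 comparisons share the Naive libraries. Cox6b1, the common isoform of a subunit on the intermembrane side, was higher in Anergic (log2FC 0.40 ± 0.109 SE, adjusted p = 0.00412) and Treg (log2FC 0.34 ± 0.109 SE, adjusted p = 0.0179) than in Naive cells. Cox6a1, the common isoform of a regulatory subunit, was lower in Anergic than in Teff (log2FC -0.30 ± 0.0929 SE, adjusted p = 0.0183) and Naive (log2FC -0.31 ± 0.0939 SE, adjusted p = 0.00941). Cox4i1, the common isoform of the regulatory subunit IV, was called in no comparison, at 117 ± 9.498 CPM in Anergic, 126 ± 3.87 in Treg, 115 ± 7.31 in Teff and 121 ± 3.74 in Naive (mean ± SD, n = 3 each), but lower in Anergic than in Treg with scaling by total counts (adjusted p = 0.0164). Cox7a2 was called in none either, with log2 fold changes of -0.077 to 0.033. Ndufa4, named for complex I but a subunit of complex IV, was higher in Teff than in Naive cells (log2FC 0.37 ± 0.136 SE, adjusted p = 0.0364). By its name it is 1 of the 2 complex I members given above as higher in Teff than in Naive. It was not called without Teff replicate 1 (adjusted p = 0.0825) or 3 (adjusted p = 0.103) or Naive replicate 1 (adjusted p = 0.146) or 2 (adjusted p = 0.101). The Naive call of Cox6b1 was lost in Anergic without Anergic replicate 3 (adjusted p = 0.0515) and in Treg without Treg replicate 1 (adjusted p = 0.0655) or Naive replicate 3 (adjusted p = 0.0836). The calls of Cox6a1 were lost without Anergic replicate 1 (adjusted p = 0.0955 against Teff and 0.0575 against Naive), Teff replicate 2 (adjusted p = 0.0722) or Naive replicate 2 (adjusted p = 0.0701).

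Some of these genes, and 19 of the 89 nuclear members in all, have a near-identical stretch in another annotated gene or pseudogene. Gm11273 repeats 45.1% of the longest annotated Cox5b transcript and had 64 to 82 counts in Anergic, 75 to 85 in Treg, 74 to 85 in Teff and 33 to 39 in Naive libraries. Cox5b itself had 490 to 522 counts in Anergic, 445 to 607 in Treg, 516 to 538 in Teff and 273 to 366 in Naive libraries. Gm6969 repeats 17.8% of the longest Cox7a2l transcript and had 54 to 69 counts in Anergic, 50 to 78 in Treg, 20 to 46 in Teff and 53 to 82 in Naive libraries. Cox7a2l itself had 720 to 783 counts in Anergic, 912 to 1301 in Treg, 732 to 792 in Teff and 955 to 1136 in Naive libraries. Reads may be shared between a gene and its copy, so the levels of both pairs are uncertain by that much.

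**Figure D5:**
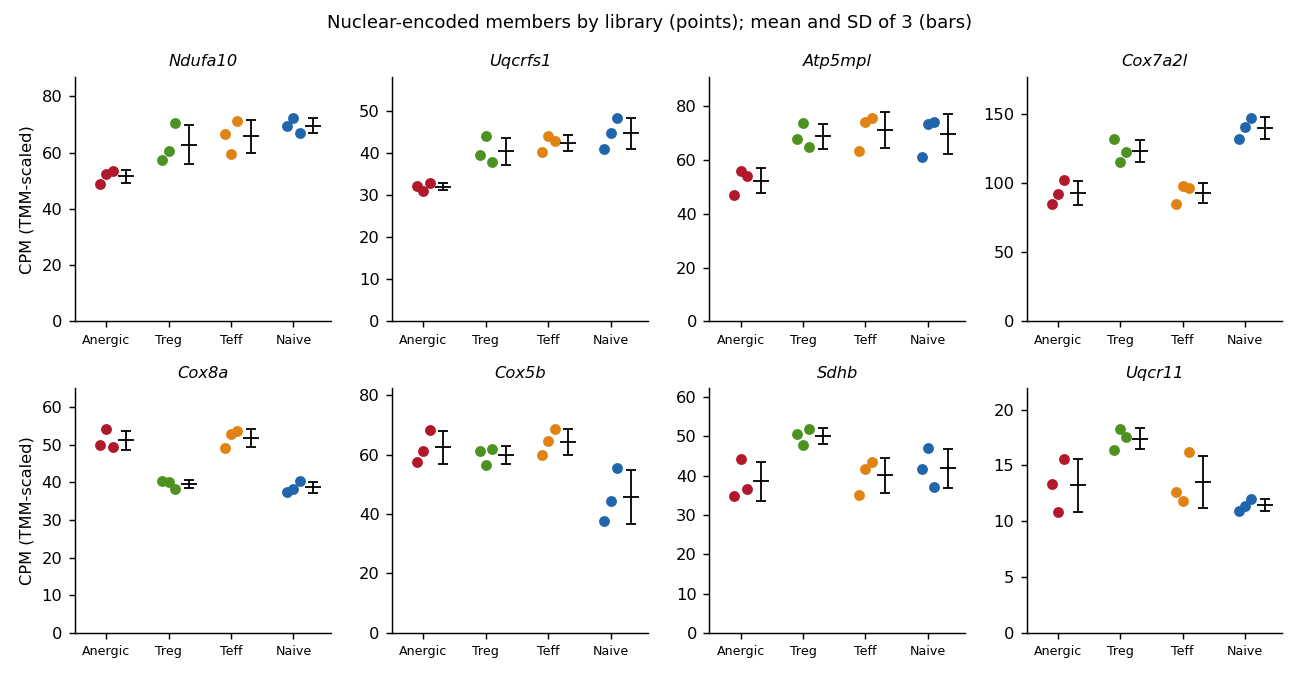
TMM-scaled CPM of 8 nuclear-encoded members in each library (points), with mean and SD of 3 (bars). Ndufa10, Uqcrfs1 and Atp5mpl are lowest in Anergic cells, and Cox7a2l and Cox8a split Anergic and Teff from Treg and Naive in opposite directions.

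Promoter sequences were taken from RefSeq (GRCm38.p6, 250 bases before to 50 after the start of transcription) for 66 nuclear members. They were searched on both strands for exact matches to the core of sites known for regulators of nuclear mitochondrial genes: CGCATGCG for NRF1, CCGGAAG for GABPA (also called NRF2) and AAGATGGC for YY1. The NRF1 letters were found in 8 of the 66 (12.1%) and in 1.87% of 32851 promoters of all genes. Those of GABPA were found in 15 (22.7%) and in 8.86% of all, and those of YY1 in 8 (12.1%) and in 2.75% of all. No motif overlapped another in the promoters printed. Those of Cox8a and Cox7a2l are shown because both genes moved between subsets in opposite directions, and that of Cox6a1 because it holds NRF1 and GABPA letters together. Capitals mark the matches: 2 of GABPA in Cox8a, at -5 and 32 from the start, 1 of NRF1 at -161 and 1 of GABPA at -16 in Cox6a1, and none in Cox7a2l.
Cox8a, chr19:7217567-7217866, minus strand: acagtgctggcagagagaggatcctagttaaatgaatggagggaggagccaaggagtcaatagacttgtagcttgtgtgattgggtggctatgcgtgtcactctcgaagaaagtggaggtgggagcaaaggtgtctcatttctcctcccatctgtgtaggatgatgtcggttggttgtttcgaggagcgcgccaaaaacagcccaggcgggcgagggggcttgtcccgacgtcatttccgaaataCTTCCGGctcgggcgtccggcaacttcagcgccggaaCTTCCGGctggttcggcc
Cox7a2l, chr17:83514284-83514583, minus strand: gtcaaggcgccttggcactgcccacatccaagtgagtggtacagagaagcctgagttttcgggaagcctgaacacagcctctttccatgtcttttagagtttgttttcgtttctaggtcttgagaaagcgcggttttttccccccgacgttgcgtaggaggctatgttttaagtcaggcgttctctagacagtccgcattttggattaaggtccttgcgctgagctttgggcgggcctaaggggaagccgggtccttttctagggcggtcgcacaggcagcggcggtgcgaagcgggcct
Cox6a1, chr5:115348909-115349208, minus strand: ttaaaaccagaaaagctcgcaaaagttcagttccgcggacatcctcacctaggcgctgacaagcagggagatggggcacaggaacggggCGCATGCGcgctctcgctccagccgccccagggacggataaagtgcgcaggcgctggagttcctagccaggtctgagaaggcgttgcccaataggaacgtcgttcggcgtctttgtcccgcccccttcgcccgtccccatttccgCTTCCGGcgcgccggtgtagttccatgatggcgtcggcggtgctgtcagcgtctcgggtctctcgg
A match is a description of the letters and not a site shown to be bound. The mRNA of Nrf1 was called in no comparison, at 57.1 ± 10.3 CPM in Anergic, 65.9 ± 3.66 in Treg, 66.2 ± 4.53 in Teff and 65.3 ± 5.44 in Naive (mean ± SD, n = 3 each). That of Gabpa was called in none either, at 80.01 ± 6.73 CPM in Anergic, 77.8 ± 3.94 in Treg, 83.8 ± 1.09 in Teff and 76.03 ± 6.13 in Naive (mean ± SD, n = 3 each).

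Complex V had 16 tested nuclear members. In Anergic cells 4 were lower against Treg, 2 against Teff and 2 against Naive, and 0 were higher. Those lower were 25.0%, 12.5% and 12.5%, against 15.3%, 12.7% and 21.3% of all entries. Atp5mpl, a small membrane subunit (chr12:111961375-111966977, minus strand), had 46.9, 55.9 and 53.9 CPM in the Anergic and 67.8, 73.9 and 64.8 CPM in the Treg libraries. In Teff libraries Atp5mpl had 63.3, 74.2 and 75.6 CPM, and in Naive libraries 61.2, 73.5 and 74.2 CPM. All 3 Anergic libraries were below all 9 others. The log2FC of Atp5mpl was -0.40 ± 0.0901 SE against Treg (adjusted p = 0.00129). It was -0.44 ± 0.0904 SE against Teff (adjusted p = 0.000553) and -0.42 ± 0.0914 SE against Naive (adjusted p = 0.000595). Atp5d, the delta subunit of the rotating stalk, had 65.5, 62.9 and 66.8 CPM in Anergic and 74.6, 86.8 and 77.4 CPM in Treg libraries (log2FC -0.29 ± 0.0715 SE, adjusted p = 0.00288). Atp5h, subunit d of the fixed stalk, had 83.7, 89.3 and 97.1 CPM in Treg and 96.02, 107 and 109.8 CPM in Teff libraries, which overlapped by 1 library (log2FC -0.21 ± 0.07600 SE, adjusted p = 0.0401). Atp5h was not called without Teff replicate 2 (adjusted p = 0.0937) or 3 (adjusted p = 0.164) or Treg replicate 1 (adjusted p = 0.177) or 2 (adjusted p = 0.0884), and 34.0% of its longest transcript is repeated in Gm10250, which had 113 to 211 counts. In Treg against Naive and in Teff against Naive 1 complex V member each was higher (6.25%) and 0 lower. Of all entries 19% and 19.2% were higher there. The mitochondrial-encoded subunit a, mt-Atp6, was called in no comparison with all libraries in, at 14 to 33 counts.

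Tissue isoforms of complex IV known from muscle, lung and testis were at or near 0. Cox4i2 had 0 to 2 counts per library, Cox6a2 0 to 1, Cox6b2 0 to 3, Cox7a1 0 to 4 and Cox8b 0 to 1, and Cox7b2 and Cox8c had 0 in all 12. Ndufa4l2, a hypoxia-linked relative of Ndufa4, had 0 to 5. Chosen after their values were seen, 3 core subunits that the complexes need were also nearly uncounted. Ndufs3 of complex I had 0 to 1 counts, Uqcrc1 of complex III 0 to 17, and Atp5a1, the alpha subunit of the ATP synthase, 0 to 5 in 11 libraries and 98 in Naive replicate 1. Of the longest Ndufs3 transcript, 75.7% is repeated in Gm12251, which had 6 to 21 counts, and for Uqcrc1 and Atp5a1 no such copy was found. These low values cannot be read as absence of the subunits.

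Genes that work with the complexes were read from lists beside the members, and their counts are set against the shares of all entries called. In Anergic cells 15.6% of all entries were higher and 15.3% lower against Treg, 13.9% and 12.7% against Teff, and 25.0% and 21.3% against Naive. Among 6 subunits and partners that the naming rule does not catch, Atpif1, the inhibitor of the ATP synthase, had 36.2, 36.98 and 37.4 CPM in the Anergic and 39.1, 40.9 and 44.1 CPM in the Treg libraries. In Teff libraries Atpif1 had 24.5, 25.3 and 31.4 CPM, and in Naive libraries 15.2, 18.7 and 16.5 CPM. All Treg and Anergic libraries were above all Teff libraries, and these above all Naive libraries. Against Naive, Atpif1 was higher in Anergic (log2FC 1.13 ± 0.1104 SE, adjusted p = 8.2e-09), Treg (log2FC 1.29 ± 0.109 SE, adjusted p = 9.09e-10) and Teff (log2FC 0.68 ± 0.114 SE, adjusted p = 4.14e-05). Against Teff, it was higher in Anergic (log2FC 0.45 ± 0.102 SE, adjusted p = 0.00164) and Treg (log2FC 0.61 ± 0.101 SE, adjusted p = 3.39e-05). In Anergic cells 0 of the 6 rose and 1 fell against Treg, 1 rose and 0 fell against Teff, and 1 rose and 1 fell against Naive. Cyc1, the cytochrome c1 of complex III, was lower in Anergic than in Treg (log2FC -0.41 ± 0.112 SE, adjusted p = 0.00596) and Naive (log2FC -0.51 ± 0.113 SE, adjusted p = 0.000655). Its levels were 19.5 ± 1.74 CPM in Anergic, 25.98 ± 1.72 in Treg, 21.7 ± 0.7705 in Teff and 27.9 ± 3.67 in Naive (mean ± SD, n = 3 each). Of 48 tested assembly factors 9 rose (18.8%) and 5 fell (10.4%) in Anergic against Naive cells, and at most 5 were called in either direction in the other comparisons, so the share called was below that of all entries in all 6. Assembly factors had a median log2FC of 0.043 against Treg, -0.033 against Teff and -0.018 against Naive. Sdhaf1, needed to mature the iron-sulfur subunit of complex II, was higher in Treg than in Teff (log2FC 1.26 ± 0.0953 SE, adjusted p = 1.74e-10) and Naive (log2FC 0.86 ± 0.0933 SE, adjusted p = 6.82e-08). Anergic cells had less of it than Treg (log2FC -0.50 ± 0.0895 SE, adjusted p = 0.000113). Surf1, a complex IV assembly factor, was higher in Anergic than in Teff (log2FC 0.37 ± 0.101 SE, adjusted p = 0.00685) and Naive (log2FC 0.64 ± 0.105 SE, adjusted p = 2.03e-05), and the Teff call was lost without Anergic replicate 3 (adjusted p = 0.0507). Cox10, of heme a synthesis, was lower in Anergic than in Teff (log2FC -0.56 ± 0.124 SE, adjusted p = 0.00117) and Naive (log2FC -0.58 ± 0.125 SE, adjusted p = 0.000498). The same held in Treg against Teff (log2FC -0.65 ± 0.123 SE, adjusted p = 0.000225) and Naive (log2FC -0.66 ± 0.125 SE, adjusted p = 0.000175).

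Among the factors that copy, transcribe and process mitochondrial DNA and RNA, lower calls stood furthest above the share of all entries in Teff against Naive. Of 31 tested, 0 rose and 4 fell in Anergic against Treg, 1 rose and 3 fell against Teff, and 0 rose and 9 fell against Naive. Those that fell were 12.9%, 9.68% and 29.0%, below the shares of all entries against Treg and Teff and above the 21.3% against Naive. The list is small, and 29.0% beside 21.3% is not read as a result about these factors. In Treg against Teff 5 were higher (16.1%, with 15% of all entries) and 0 lower. In Treg against Naive 1 was higher and 4 lower (12.9%, with 13.9% of all entries). In Teff against Naive 1 was higher and 10 lower (32.3%), where 15.7% of all entries were lower. These factors had a median log2FC of -0.11 against Treg, 0.022 against Teff and -0.17 against Naive. Tfam, the packaging and transcription factor of mitochondrial DNA, was called in no comparison, at 41.5 ± 2.06 CPM in Anergic, 41.9 ± 0.386 in Treg, 40.2 ± 0.322 in Teff and 42.5 ± 2.995 in Naive (mean ± SD, n = 3 each). Rexo2, an exonuclease of short mitochondrial RNAs, was lower in Anergic than in Treg (log2FC -0.90 ± 0.0999 SE, adjusted p = 1.41e-07) and Teff (log2FC -0.36 ± 0.104 SE, adjusted p = 0.0107). The Teff call was lost without Anergic replicate 1 (adjusted p = 0.0728) or Teff replicate 2 (adjusted p = 0.0624). Lrpprc, which stabilises mitochondrial mRNAs, was lower in Anergic than in Treg (log2FC -0.42 ± 0.0812 SE, adjusted p = 0.000241). Tbrg4, a mitochondrial RNA factor of the FASTK family, was lower than in Naive in Anergic (log2FC -0.87 ± 0.124 SE, adjusted p = 2.83e-06) and Teff (log2FC -0.51 ± 0.1202 SE, adjusted p = 0.00153). Both mitochondrial rRNAs were higher in Anergic than in every other subset. The log2FC of mt-Rnr2 was 0.50 ± 0.0867 SE against Treg (adjusted p = 6.98e-05). It was 0.46 ± 0.0867 SE against Teff (adjusted p = 0.000212) and 0.67 ± 0.0869 SE against Naive (adjusted p = 7.29e-07). The log2FC of mt-Rnr1 was 0.46 ± 0.0886 SE against Treg (adjusted p = 0.000229). It was 0.51 ± 0.0886 SE against Teff (adjusted p = 8.34e-05) and 0.53 ± 0.0886 SE against Naive (adjusted p = 2.81e-05). Neither was called between the other subsets, and of 22 mitochondrial tRNAs 4 were tested and 0 called by edgeR in any comparison. The 75 tested mitochondrial ribosomal proteins, which are nuclear-encoded, had 1 higher and 6 lower in Anergic than in Treg, 2 and 5 than in Teff, and 5 and 11 than in Naive cells. In Treg against Teff 9 were higher and 4 lower, in Treg against Naive 5 and 4, and in Teff against Naive 2 and 3. All of these were below the shares of all entries, for example 8.0% lower in Anergic against Treg and 14.7% lower in Anergic against Naive. Mitochondrial ribosomal proteins had a median log2FC of -0.071 against Treg, -0.017 against Teff and -0.082 against Naive. Mrps6 rose in Anergic cells against all 3. The log2FC of Mrps6 was 0.53 ± 0.102 SE against Treg (adjusted p = 0.000229). It was 1.03 ± 0.107 SE against Teff (adjusted p = 5.22e-08) and 0.91 ± 0.108 SE against Naive (adjusted p = 1.64e-07). Mrpl12 and Mrpl30 fell against Treg (log2FC -0.47 ± 0.108 SE, adjusted p = 0.00133 and log2FC -0.49 ± 0.116 SE, adjusted p = 0.00185).

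Of 13 tested regulators of mitochondrial biogenesis, 1 was higher and 2 lower in Anergic than in Treg, 0 and 2 than in Teff and 0 and 4 than in Naive cells. Those lower were 15.4%, 15.4% and 30.8% of a small list, against 15.3%, 12.7% and 21.3% of all entries. Biogenesis regulators had a median log2FC of -0.023 against Treg, -0.15 against Teff and -0.088 against Naive. Myc, a general driver of growth and of mitochondrial biogenesis, had 21.3, 27.4 and 31.9 CPM in the Anergic and 101, 99.8 and 89.4 CPM in the Treg libraries. In Teff libraries Myc had 43.4, 41.1 and 41.6 CPM, and in Naive libraries 71.4, 85.4 and 83.2 CPM. Its Anergic libraries were the lowest. The log2FC of Myc was -1.85 ± 0.102 SE against Treg (adjusted p = 6.76e-13). It was -0.65 ± 0.1099 SE against Teff (adjusted p = 6.07e-05) and -1.58 ± 0.105 SE against Naive (adjusted p = 7.79e-12). Pprc1, a coactivator of NRF1, was lower in Anergic than in Treg (log2FC -0.34 ± 0.0839 SE, adjusted p = 0.00275) and Naive (log2FC -0.85 ± 0.0828 SE, adjusted p = 6.89e-09). Against Naive, it was also lower in Treg (log2FC -0.51 ± 0.0805 SE, adjusted p = 1.68e-05) and Teff (log2FC -0.63 ± 0.0815 SE, adjusted p = 1.21e-06). Among the other comparisons 2 were higher and 2 lower in Treg than in Teff, 1 and 4 in Treg than in Naive, and 1 and 3 in Teff than in Naive cells. Those lower were 15.4%, 30.8% and 23.1%, against 14.1%, 13.9% and 15.7% of all entries. Those higher were 15.4%, 7.69% and 7.69%, against 15%, 19% and 19.2%.

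The suppliers of electrons and substrates gave mixed calls. Of 18 tested genes of the citric acid cycle, 1 was higher and 3 lower in Anergic than in Treg, 0 and 3 than in Teff, and 1 and 3 than in Naive cells. The 3 lower each time are 16.7% of the 18, near the shares of all entries. In Treg against Teff 3 were higher and 3 lower (16.7% each), where 15% of all entries were higher and 14.1% lower. In Treg against Naive 0 were higher and 1 lower (5.56%), with 19% and 13.9% of all entries. In Teff against Naive 2 were higher and 2 lower (11.1% each), with 19.2% and 15.7% of all entries. Citric acid cycle genes had a median log2FC of -0.022 against Treg, -0.035 against Teff and -0.055 against Naive. Idh2, the mitochondrial NADP-dependent isocitrate dehydrogenase, was lower than in Naive cells in Anergic (log2FC -1.15 ± 0.106 SE, adjusted p = 3.1e-09), Treg (log2FC -1.29 ± 0.106 SE, adjusted p = 6.42e-10) and Teff (log2FC -0.71 ± 0.102 SE, adjusted p = 5.5e-06). Pdha1, of pyruvate dehydrogenase, was lower in Anergic than in Treg (log2FC -0.34 ± 0.0695 SE, adjusted p = 0.000482) and Naive (log2FC -0.35 ± 0.0701 SE, adjusted p = 0.000218). Teff cells also had less Pdha1 than Naive (log2FC -0.32 ± 0.06995 SE, adjusted p = 0.000898), and Treg had more than Teff (log2FC 0.30 ± 0.0694 SE, adjusted p = 0.00147). Of 13 genes of coenzyme Q synthesis, 1 was higher and 1 lower in each comparison of Anergic cells, and these were Coq8a, higher, and Coq2, lower, each time. That is 7.69% of the 13 in each direction, below the shares of all entries. Coenzyme Q genes had a median log2FC of 0.064 against Treg, 0.095 against Teff and 0.067 against Naive. The log2FC of Coq8a was 0.36 ± 0.132 SE against Treg (adjusted p = 0.0431). It was 1.09 ± 0.142 SE against Teff (adjusted p = 1.82e-06) and 0.78 ± 0.1398 SE against Naive (adjusted p = 6.28e-05). The log2FC of Coq2 was -0.35 ± 0.124 SE against Treg (adjusted p = 0.0324). It was -0.43 ± 0.125 SE against Teff (adjusted p = 0.0121) and -0.52 ± 0.125 SE against Naive (adjusted p = 0.00135). Coq8a was not called against Treg when Anergic replicate 1 was left out (adjusted p = 0.109), nor without Anergic replicate 2 (adjusted p = 0.166), Treg replicate 1 (adjusted p = 0.0961) or 2 (adjusted p = 0.135). Coq2 was not called against Treg when Anergic replicate 2 was left out (adjusted p = 0.107), nor without Anergic replicate 3 (adjusted p = 0.108) or Treg replicate 1 (adjusted p = 0.189). Against Teff it was not called without Anergic replicate 2 (adjusted p = 0.0505) or Teff replicate 3 (adjusted p = 0.0757). Of 9 tested carriers and channels, 1 was higher and 1 lower in Anergic than in Treg, 2 and 1 than in Teff, and 2 and 2 than in Naive cells. The higher calls were 11.1%, 22.2% and 22.2%, against 15.6%, 13.9% and 25.0% of all entries. The lower calls were 11.1%, 11.1% and 22.2%, against 15.3%, 12.7% and 21.3%. In Treg against Teff 1 was higher and 0 lower, in Treg against Naive 3 and 0, and in Teff against Naive 1 and 1. Those higher were 11.1%, 33.3% and 11.1% of a small list, against 15%, 19% and 19.2% of all entries. Carriers and channels had a median log2FC of -0.12 against Treg, 0.031 against Teff and -0.015 against Naive. Ucp2, an uncoupling protein family member, had 606, 608 and 654 CPM in the Anergic and 479.5, 448 and 466 CPM in the Treg libraries. In Teff libraries Ucp2 had 485, 509.9 and 497 CPM, and in Naive libraries 376, 414 and 408 CPM. The log2FC of Ucp2 was 0.42 ± 0.0616 SE against Treg (adjusted p = 7.39e-06). It was 0.32 ± 0.0615 SE against Teff (adjusted p = 0.000245) and 0.64 ± 0.06201 SE against Naive (adjusted p = 6.83e-09). Of the adenine nucleotide carriers, which exchange ADP for ATP, Slc25a4 was higher in Anergic than in Teff (log2FC 0.34 ± 0.0853 SE, adjusted p = 0.00375) and Naive (log2FC 0.43 ± 0.0869 SE, adjusted p = 0.0002303). With scaling by total counts its Teff call was lost (adjusted p = 0.0547). Slc25a5 was lower in Anergic cells against all 3. The log2FC of Slc25a5 was -0.39 ± 0.0752 SE against Treg (adjusted p = 0.000245). It was -0.29 ± 0.0756 SE against Teff (adjusted p = 0.00566) and -0.32 ± 0.07603 SE against Naive (adjusted p = 0.001199).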

How the data were processed

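RNA was measured in 12 libraries of sorted CD4 T cells, 3 per subset, prepared per the labels' protocols with QIAGEN RNeasy columns and the Takara SMARTer stranded kit for small amounts of total RNA. The deposited values are raw read counts per gene. The series' design text names Trimmomatic for trimming, HISAT2 as aligner, SAMtools, featureCounts as counter and edgeR as the authors' tools. The submitters' processing notes name GRCm38 (mm10) and also deepTools 3.5.1.0.1. Annotation, strand and multi-mapping settings: not given in the sources used here. The counts include ribosomal RNA, whose share differed between libraries. Whether ribosomal RNA was removed or kept alike in all libraries during preparation was not tested.

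All 54532 entries were filtered with filterByExpr, scaled by TMM and tested with edgeR 4.0.16 (R 4.3.3, quasi-likelihood test, subset means, all 12 libraries), with Benjamini-Hochberg adjustment over the 13393 tested entries. The common biological coefficient of variation over genes came to 0.0764. For each gene 1 estimate of the spread was shared by the 4 subsets, although the Anergic libraries differed more from each other. Between libraries of a subset, the chi-square of counts per degree of freedom was 10.75 to 24.18 in Anergic and 2.28 to 8.10 elsewhere. The SE and adjusted p do not take up this difference, and its part in the calls was not tested. The SE is the log2 fold change divided by the square root of F. Tests are two-sided, and the fit was checked on simulated counts. Positions and exon lengths came from GENCODE vM21 (GRCm38). Copies were sought with blastn 2.17.0 (at least 98% identity over 50 bases). Atp5o stands on 2 entries, one of them at 0 in every library, and matched no position. Members and gene lists were chosen with earlier results of these data known. Named are all 13 mitochondrial-encoded mRNAs, the 4 SDH genes, tissue isoforms, up to 3 nuclear members called in each direction of a comparison, and up to 2 genes a list and direction (then also in other comparisons), with the regulators Tfam, Nrf1 and Gabpa, except where the text says otherwise. Alternatives were DESeq2 1.42.0, its size factors, total-count scaling, 2 other filters, removal of rRNA and small RNA or of mitochondrial entries, the replicate number as a block, and each library left out. For the ratio they were medians per kb, sums without 4 mitochondrial genes and, added after seeing the data, sums without genes that have near-identical copies.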

Additional observations from a re-analysis of the deposited data

How the results depend on the processing

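Of 108 alternative values for the 18 counts and ratios, other than those with a library left out, 92 stayed close to the reported value. Scaling by total counts gave 31 nuclear members called in Anergic against Treg (14 by TMM), 13 in Anergic against Teff (8) and 19 in Treg against Naive (11), and 0 mitochondrial mRNAs in Treg against Naive (2) and 1 in Teff against Naive (3). DESeq2 called 7 nuclear members in Treg against Naive and 5 in Teff against Naive (8 by edgeR), and 1 mitochondrial mRNA in Treg against Teff. The labels do not say that a replicate number marks a shared animal or day. Deviations from the subset means correlated at -0.048 to 0.18 in the 18 same-numbered pairs, above 0 in 17 and above 0.1 in 4. The median was 0.065, against -0.044 in the 36 other pairs. Averaged over the other subsets, the correlation was highest with the own number in 11 of the 12 libraries. Because deviations within a subset sum to 0, positive values in same-numbered pairs pull those of other pairs below 0. The pairs are thus not independent of each other. These correlations are weak and are at most a hint from the data that the numbers mark something shared. As no label names a pairing, the main tests did not take the numbers as pairs. If they do mark a shared animal or day, the main tests leave that pairing out. With the replicate block 13 nuclear members and 6 mitochondrial mRNAs were called in Teff against Naive, among them mt-Cytb (adjusted p = 0.00371), mt-Co1 (adjusted p = 0.0331) and mt-Nd2 (adjusted p = 0.0462). The block also gave calls of mt-Nd5 in Anergic against Treg (adjusted p = 0.0144) and mt-Nd4 in Anergic against Naive (adjusted p = 0.0198), and the other counts stayed within 1.5 times. Taking medians of log2 CPM per kb in place of sums, the log2 difference in the mitochondrial to nuclear ratio was 0.60 in Anergic against Treg, 0.58 in Anergic against Teff, -0.27 in Treg against Naive and -0.25 in Teff against Naive, and it was -0.020 in Treg against Teff, where the sums gave 0.059 and the libraries overlapped. Without mt-Co1, mt-Co2, mt-Co3 and mt-Atp6 it was -0.23 in Teff against Naive (-0.21 with them). Leaving out the genes with near-identical copies, an alternative chosen after the data were seen, kept every difference within the spread of libraries. The causes were not tested.

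With one library left out the nuclear members called ranged from 9 to 16 in Anergic against Treg, 5 to 9 in Anergic against Teff, 13 to 20 in Anergic against Naive, 3 to 8 in Treg against Teff, 7 to 13 in Treg against Naive and 5 to 13 in Teff against Naive. The libraries that moved a count by over 1.5 times were Anergic replicate 1 (9 against Treg and 5 against Teff without it), Teff replicate 3 (5 in Anergic against Teff), Treg replicate 1 (3) and 3 (4) in Treg against Teff, Treg replicate 2 (7 in Treg against Naive), and Teff replicate 1 (13), Teff replicate 2 (5) and Naive replicate 2 (5) in Teff against Naive. The mitochondrial mRNAs called ranged from 4 to 7, 5 to 9 and 1 to 5 in Anergic against Treg, Teff and Naive, 0 to 2 in Treg against Teff, 0 to 2 in Treg against Naive and 1 to 5 in Teff against Naive. The log2 differences in the ratio ranged from 0.33 to 0.44 in Anergic against Treg, 0.39 to 0.50 in Anergic against Teff, 0.19 to 0.30 in Anergic against Naive, 0.026 to 0.10 in Treg against Teff, -0.18 to -0.10 in Treg against Naive and -0.22 to -0.19 in Teff against Naive. Of 60 calls of single members named by rule, 35 held under every alternative and 25 were lost under at least 1, and 14 results gained a call under at least 1. Low counts limit the precision for the 6 nearly uncounted mitochondrial mRNAs, and the 14 untested nuclear members have no test.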
